A study of Mus musculus with 16 samples.

Results

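The 29 genes described here encode the enzymes of cholesterol and fatty acid synthesis and the proteins that control them, and they were taken as a fixed list of symbols from the 33072 genes of the count table. All 29 symbols matched a single gene. No measured value entered the rule for the list, but it was chosen with earlier results of these data known. They were measured by RNA sequencing in 4T1 cells, a metastatic mouse mammary carcinoma line, and in 67NR cells, a non-metastatic line from the same BALB/c tumor, so that each line stands for a single tumor. Each line had been kept for 24 h in fresh medium with serum, with DMSO as vehicle or with 15 µM CIX, a synthetic ω3 fatty acid derivative that inhibits the phospholipase cPLA2α. Each of the 4 groups held 4 biological replicates, 16 samples in all, which are named here by the numbers in their labels. The question was whether the lipid synthesis genes responded to CIX in each line and whether the 2 lines responded differently.

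Cholesterol is built from acetyl-CoA through mevalonate, farnesyl diphosphate, squalene and lanosterol, and most of the enzymes on this route are under common transcriptional control. The sterol regulatory element-binding proteins (SREBPs) are made as membrane proteins of the endoplasmic reticulum. When membrane sterol is low, Scap carries them to the Golgi, where they are cut and released to the nucleus, and when sterol is high, Insig proteins hold the complex back. Polyunsaturated fatty acids are also known to lower the activity of SREBP-1 in cultured cells and in liver.

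SREBPs bind short sterol regulatory elements and act together with the factor that binds CCAAT boxes, so the promoters of the genes that the results turn on are shown first. RefSeq promoters on GRCm38.p6, windows of 300 bases that begin before the start of transcription and end shortly after it, were found for 25 of the 29 genes (31 promoters), all but Sqle, Fdft1, Fdps and Stard4. The sequence TCACNCCAC, a form of the sterol regulatory element, was found on either strand in 1 of these genes, Hmgcs1, and in 1.24% of all 32851 promoters. The Hmgcs1 promoter lies at chr13:119690101-119690400 on the plus strand, with the element in capitals, its first base 137 bases before the start.
Hmgcs1: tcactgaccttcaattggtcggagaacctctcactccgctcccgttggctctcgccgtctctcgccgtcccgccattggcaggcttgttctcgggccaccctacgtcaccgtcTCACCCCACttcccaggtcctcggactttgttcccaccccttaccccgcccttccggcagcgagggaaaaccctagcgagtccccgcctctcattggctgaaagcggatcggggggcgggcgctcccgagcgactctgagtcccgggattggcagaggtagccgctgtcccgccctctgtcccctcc
CCAAT was found on either strand in 22 of the 25 genes (88.0%). Counted by promoter, it was in 74.2% of their 31 promoters, against 37.4% of all promoters. The promoters of 3 genes whose response to CIX differed between the lines (Mvd, Pmvk and Lss, below) are printed with CCAAT or its complement in capitals. They lie at chr8:122443373-122443672 (minus strand), chr3:89454291-89454590 (plus strand) and chr10:76531355-76531654 (plus strand).
Mvd: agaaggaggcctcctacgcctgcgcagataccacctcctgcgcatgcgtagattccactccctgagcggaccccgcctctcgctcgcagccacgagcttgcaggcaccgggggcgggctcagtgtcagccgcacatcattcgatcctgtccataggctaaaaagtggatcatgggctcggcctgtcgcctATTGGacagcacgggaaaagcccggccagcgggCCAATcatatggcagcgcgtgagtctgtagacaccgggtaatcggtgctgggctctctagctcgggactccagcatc
Pmvk: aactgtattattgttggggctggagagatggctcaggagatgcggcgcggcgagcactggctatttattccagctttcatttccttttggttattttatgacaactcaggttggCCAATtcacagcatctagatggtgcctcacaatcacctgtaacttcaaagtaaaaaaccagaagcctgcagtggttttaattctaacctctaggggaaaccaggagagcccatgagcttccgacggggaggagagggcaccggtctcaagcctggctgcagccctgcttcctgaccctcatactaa
Lss: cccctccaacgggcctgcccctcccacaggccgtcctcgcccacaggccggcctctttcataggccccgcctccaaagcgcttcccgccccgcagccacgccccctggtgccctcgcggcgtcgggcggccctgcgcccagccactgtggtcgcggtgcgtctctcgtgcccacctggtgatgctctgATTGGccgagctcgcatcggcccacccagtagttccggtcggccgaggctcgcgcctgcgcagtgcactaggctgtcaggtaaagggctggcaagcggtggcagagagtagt
The Mvd promoter held such sites 60 and 27 bases before the start, Pmvk 136 and Lss 62 bases before it. Pmvk also had a second RefSeq start, without a CCAAT. Of the other motifs searched on both strands, CACGTG was found in 19.4% of the promoters of these genes and in 7.15% of all promoters, and GGGCGG in 77.4% and 35.7%. These are matches of letters and show no binding.

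The total estimated count per sample lay between 21715700 and 29450629, and 3 counts corresponded to between 0.107 and 0.137 CPM, a floor that covers counting error only. The lowest level of any of the 29 genes was 74 counts, in a sample of Mylip, so detection did not limit the comparisons. Levels are given as CPM, counts scaled to a common library size, after TMM scaling. Replicates were no repeats of each other, with a chi-square between 16.7 and 108 per gene. In 67NR, vehicle sample 13 stood apart from the other vehicle samples, with 84.6 to 98 per gene. Those samples had 16.7 to 19.9 among themselves. The 6 epithelial markers summed to between 2480 and 2890 CPM in 4T1 samples and to between 1.07 and 5.39 CPM in 67NR samples, whereas the 5 mesenchymal markers summed to between 2590 and 5410 CPM in 4T1 and to between 7360 and 11200 CPM in 67NR. The 3 leukocyte and 2 endothelial markers summed to at most 2.42 CPM. Pla2g4a, which encodes the inhibited enzyme, had between 58.7 and 186 CPM in 4T1 and between 60.1 and 324 CPM in 67NR. The 324 CPM was in vehicle sample 13. CIX acts on the enzyme, so the RNA of Pla2g4a does not check the labels.

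In 4T1 a vehicle and a CIX sample stood high for these genes. Among the 19 enzymes of sterol synthesis, vehicle sample 3 was the highest vehicle sample of 4T1 for 18 and CIX sample 4 was the highest CIX sample for 18. Over the 12605 genes tested in either line, the same samples were the highest of their group for 34% and 34.7%. The 19 enzymes summed to 4352 CPM in vehicle sample 3 and to between 2623 and 2926 CPM in the other vehicle samples of 4T1. They summed to 3545 CPM in CIX sample 4 and to between 2108 and 2329 CPM in the other CIX samples. In 67NR, vehicle sample 1 was the highest of its group for 12 of the 19 enzymes (25.1% of all genes), but its sum of 2312 CPM was close to the 1774 to 2163 CPM of the others. CIX sample 2 was the highest for 17 (29.9% of all genes), with 3650 CPM against 3058 to 3140 CPM in the others. Samples 1 to 4, 1 of each group with consecutive numbers, thus each had the highest sum of their group. The labels name no batch, and the depth of samples 1 to 4 was within the range of the others. The main results in 4T1 are also given without samples 3 and 4 and with sets of 4 consecutive numbers as a block.

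**Figure D1:**
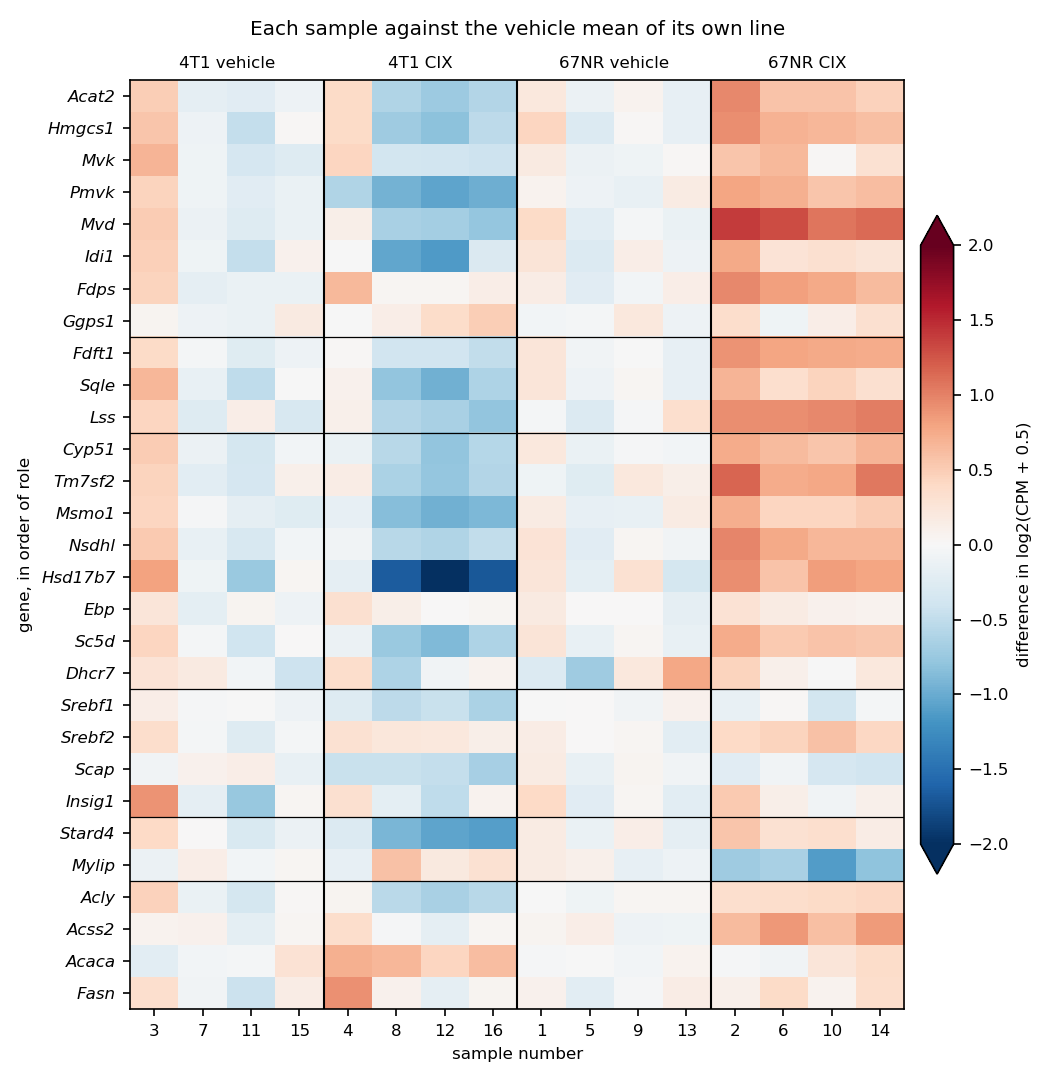
Difference in log2(CPM + 0.5) between each of the 16 samples (columns, by sample number) and the vehicle mean of its own line for the 29 genes (rows, in order of role). The CIX samples of 67NR are red for most enzymes of sterol synthesis, the CIX samples 8, 12 and 16 of 4T1 are blue, and samples 3 and 4 of 4T1 are redder than the other samples of their groups.

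In 67NR cells, genes of sterol synthesis were higher with CIX. No gene of the 29 passed the study's threshold, an adjusted p-value below 0.001 by limma-voom, at which 0.389% of the 11560 genes tested were called in this line. At an adjusted p-value below 0.05, 17 of the 29 genes were higher, against 8.51% of all genes tested, and 1 was lower, against 9.26%. In a common fit of all 16 samples 11 were higher at 0.05, against 6.58%. The unadjusted p-value was below 0.05 for 22 of the 29 genes, against 32.8% of all genes. edgeR called none at 0.001, and the Wald test of DESeq2 called 16 higher, against 4.36% of all genes, and 1 lower, against 4.64%. All 4 CIX samples were above all 4 vehicle samples for 18 of the genes, against 12.7% of all genes, and below them for 1 gene, against 10.6%. The median log2 fold change was 0.44 over the 29 genes and 0.63 over the 19 enzymes of sterol synthesis, and -0.01 over all genes tested.

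The mevalonate pathway makes the isoprenoid units. Mvd, the decarboxylase that ends it, had 52.3, 34.7, 39.0 and 36.7 CPM in the vehicle samples 1, 5, 9 and 13 of 67NR and 107, 101, 84.9 and 88.6 CPM in the CIX samples 2, 6, 10 and 14. The groups did not overlap, and the log2 fold change was 1.22 ± 0.13 (SE), the largest of the 29 genes in this line (adjusted p = 0.00125). Pmvk, the kinase before it, had 42.5, 37.6, 36.5 and 45.5 CPM with vehicle and 70.1, 66.4, 59.8 and 62.4 CPM with CIX. Its log2 fold change was 0.66 ± 0.098 (adjusted p = 0.00348), and its groups did not overlap either. The thiolase gene Acat2 (0.62 ± 0.12), the synthase gene Hmgcs1 (0.70 ± 0.14) and Fdps, for farnesyl diphosphate synthase (0.78 ± 0.11), were also higher at an adjusted p-value below 0.05. Mevalonate kinase, Mvk (0.37 ± 0.14, adjusted p = 0.0979), isopentenyl diphosphate isomerase, Idi1 (0.39 ± 0.15, adjusted p = 0.0985), and Ggps1, which branches off to protein prenylation (0.16 ± 0.12, adjusted p = 0.402), were not.

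All 3 enzymes that lead from farnesyl diphosphate to lanosterol were higher in 67NR cells with CIX at an adjusted p-value below 0.05. Fdft1, squalene synthase, had 114, 91.7, 96.3 and 86.5 CPM with vehicle and 180, 167, 164 and 161 CPM with CIX. Every CIX sample was above every vehicle sample, with a log2 fold change of 0.78 ± 0.085 (adjusted p = 0.00128). Lss, lanosterol synthase, had 128, 108, 129 and 166 CPM with vehicle and 251, 251, 255 and 265 CPM with CIX. Its CIX samples lay close together and apart from the vehicle samples, with a log2 fold change of 0.94 ± 0.12 (adjusted p = 0.00209, or 0.000497 without vehicle sample 13). Sqle, squalene epoxidase, was higher by 0.43 ± 0.11 on the log2 scale (adjusted p = 0.0268).

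Of the 8 enzymes that convert lanosterol to cholesterol, 6 were higher in 67NR at an adjusted p-value below 0.05. These were the lanosterol demethylase Cyp51 (log2 fold change 0.63 ± 0.083), the sterol reductase Tm7sf2 (0.94 ± 0.14), Msmo1 (0.50 ± 0.11), Nsdhl (0.75 ± 0.12) and Hsd17b7 (0.76 ± 0.15), which remove methyl groups from the ring, and the desaturase Sc5d (0.57 ± 0.099). The isomerase Ebp (0.14 ± 0.091, adjusted p = 0.338) and the last reductase, Dhcr7 (0.18 ± 0.29, adjusted p = 0.718), did not pass. Dhcr7 had 130, 96.5, 182 and 271 CPM in the vehicle samples of 67NR and 216, 170, 157 and 183 CPM in the CIX samples. Vehicle sample 13 was the highest of all, and the log2 fold change was 0.45 without it.

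**Figure D2:**
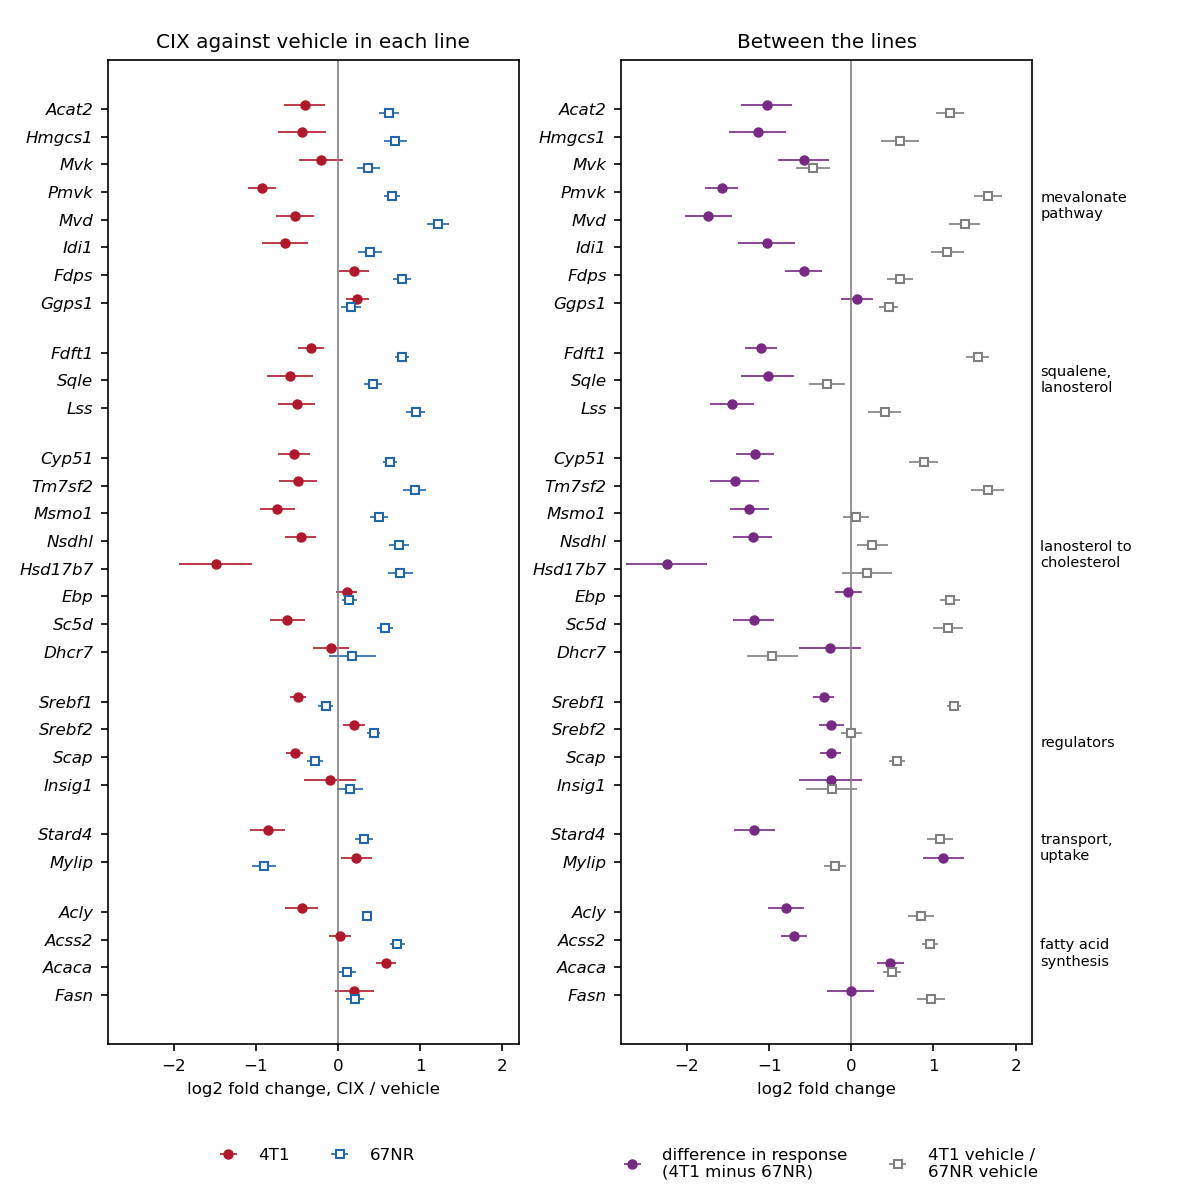
Log2 fold changes (x axis) of the 29 genes by role, with bars of 1 standard error from limma-voom, n = 4 per group. Left, CIX against vehicle in 4T1 (filled circles) and in 67NR (open squares), where the 2 lines lie on opposite sides of 0 for most enzymes of sterol synthesis. Right, the response of 4T1 minus that of 67NR (filled circles) and vehicle 4T1 against vehicle 67NR (open squares).

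In 4T1 cells, the fold change was negative for 21 of the 29 genes, but the spread between replicates was wide. No gene of the 29 passed the threshold of 0.001 by limma-voom or by edgeR, at which limma-voom called 9.34% of the 11659 genes tested. The unadjusted p-value was below 0.05 for 12 of the 29 genes, against 51.2% of all genes. The Wald test of DESeq2 called Pmvk, Srebf1, Scap and Stard4 lower, against 12.6% of all genes, and Acaca higher, against 14.0%. At an adjusted p-value below 0.05, 7 of the 29 genes (24.1%) were lower, close to the 20.8% of all genes tested, and 1 was higher, against 21.9%. No overlap between the groups was seen for 3 genes with lower levels under CIX, against 18.7% of all genes, and for 1 gene with higher levels, against 21.3%. A common fit of all 16 samples, which shares its estimate of spread with 67NR, called 5 of the 29 genes at 0.001 (the same 5 as DESeq2), against 23% of all genes, and had 14 lower at 0.05, against 24.4%, and 1 higher, against 25.3%. A fit with each set of 4 consecutive sample numbers as a block was chosen after seeing the data. It had 18 of the 29 genes lower at 0.05, against 25.3% of all genes, and 2 higher, against 25.9%. At 0.001 this fit called 5, all lower, against 9.8% of all genes in either direction. The median log2 fold change in the main fit was -0.44 over the 29 genes, -0.49 over the 19 enzymes of sterol synthesis and -0.01 over all genes tested. Since RNA was taken from whole cultures, fewer cells that express a gene and less RNA per cell cannot be told apart.

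Pmvk was the gene of the list with the smallest p-value in 4T1. It had 174, 121, 110 and 116 CPM in the vehicle samples 3, 7, 11 and 15 and 84.3, 66.2, 61.0 and 64.9 CPM in the CIX samples 4, 8, 12 and 16. The groups did not overlap, and the log2 fold change was -0.92 ± 0.17 (adjusted p = 0.00226). Mvd had 149, 97.5, 87.9 and 96.6 CPM with vehicle and 114, 67.4, 65.4 and 61.5 CPM with CIX. CIX sample 4 was above 3 of the vehicle samples, and the log2 fold change was -0.52 ± 0.23 (adjusted p = 0.0949).

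Squalene synthase and lanosterol synthase overlapped between the groups in 4T1. Fdft1 had 368, 277, 240 and 265 CPM with vehicle and 289, 218, 217 and 202 CPM with CIX, a log2 fold change of -0.32 ± 0.16 (adjusted p = 0.124). Lss had 237, 147, 191 and 141 CPM with vehicle and 188, 116, 112 and 101 CPM with CIX, a log2 fold change of -0.50 ± 0.23 (adjusted p = 0.0985). Again vehicle sample 3 and CIX sample 4 were the highest of their groups. The third enzyme, Sqle, had a log2 fold change of -0.59 ± 0.28 (adjusted p = 0.114).

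Among the later enzymes, Hsd17b7, a reductase of the methyl removal steps, had the largest fold change of the list, which is why its values are given. It had 103, 55.1, 34.7 and 59.9 CPM with vehicle in 4T1 and 51.4, 18.3, 12.3 and 17.7 CPM with CIX. CIX sample 4 reached the vehicle range and the other 3 CIX samples lay below it, with a log2 fold change of -1.49 ± 0.44 (adjusted p = 0.0223). Msmo1 (-0.74 ± 0.21, adjusted p = 0.0172) and Sc5d (-0.62 ± 0.21, adjusted p = 0.0383) were also lower at 0.05. Without samples 3 and 4, a choice made after their levels had been seen, 17 of the 29 genes were lower in 4T1 at 0.05, against 21.5% of all genes, and 3 were higher, against 24.6%. The 17 included 13 enzymes of sterol synthesis, and the 3 were Fdps (0.21), Srebf2 (0.29) and Acaca (0.49). Mvd (-0.55, adjusted p = 0.00272), Fdft1 (-0.30, adjusted p = 0.025), Lss (-0.54, adjusted p = 0.0169) and Sqle (-0.58, adjusted p = 0.0153), which had not passed 0.05 with all samples, did so then. Msmo1 (-0.77, adjusted p = 0.000907) and Pmvk (-0.86, adjusted p = 0.000502) then passed 0.001, against 2.55% of all genes with lower levels. The CIX samples then lay below the vehicle samples for 14 of the 19 enzymes, against 26.9% of all genes, where it had been 1 of 19 with all samples. Sample 4 had been the highest CIX sample for 18 of these enzymes and for 34.7% of all genes. This gain therefore follows in part from the choice of sample. Leaving out CIX sample 4 alone raised the number that passed 0.05 from 8 to 19, with 18 lower, against 21.9% of all genes, and 1 higher, against 22.6%. Leaving out vehicle sample 3 alone left 6 lower, against 19.9%, and 2 higher, against 21.2%, and moved the median log2 fold change of the 29 genes from -0.44 to -0.27. Fdft1 was then at -0.20 and Sqle at -0.37. The other single omissions left 5 or 6 lower, against 16.3 to 18.4% of all genes. The exception was that of vehicle sample 11, which left 11, against 19.7%.

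**Figure D3:**
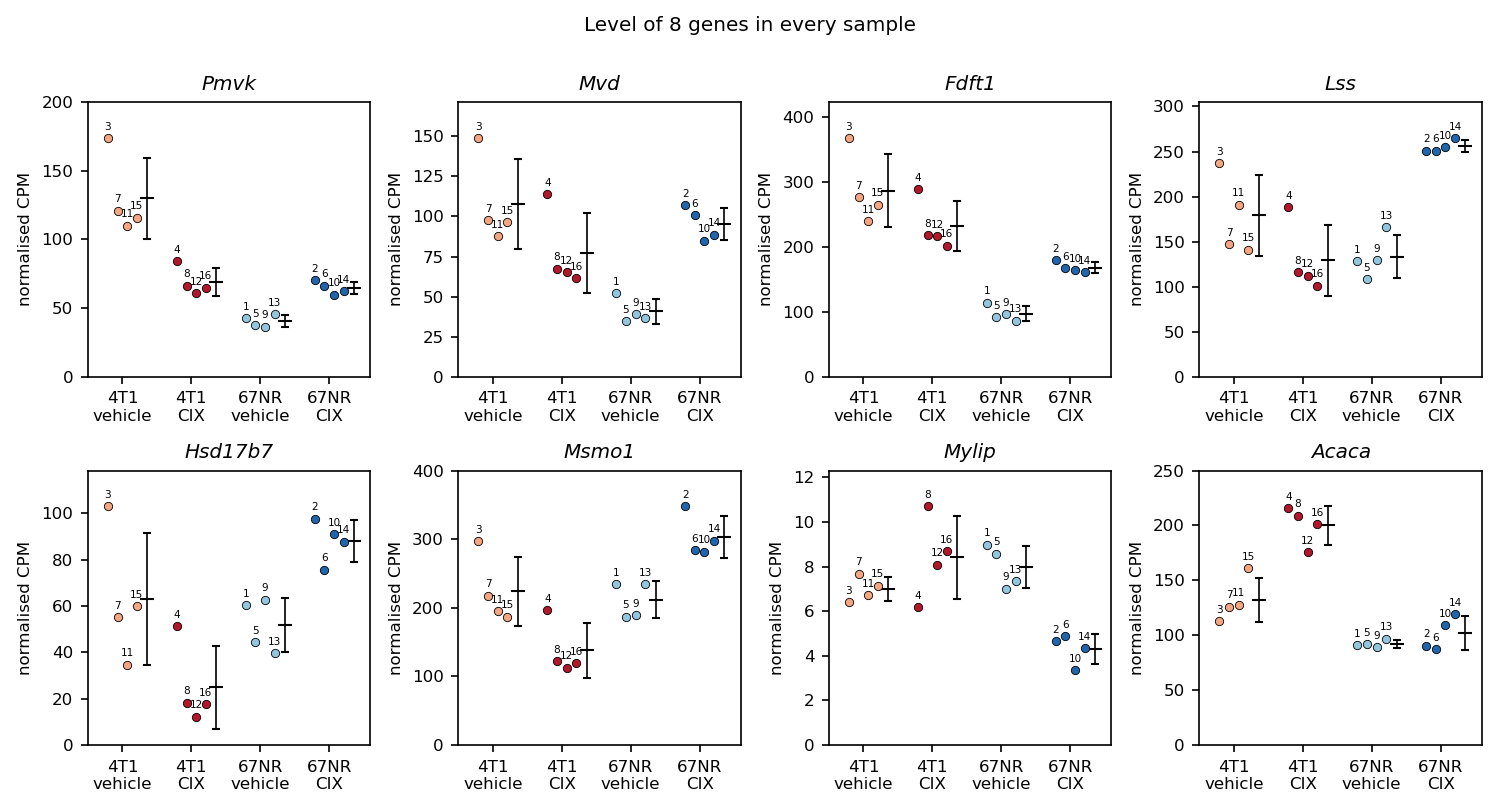
Normalised CPM of 8 genes in each sample (points, with the sample number) and mean ± SD of the 4 replicates of each group (bars at the right of the points), by group on the x axis. Samples 3 and 4 are the highest 4T1 samples of their groups for Pmvk, Mvd, Fdft1, Lss, Hsd17b7 and Msmo1, and the CIX samples of 67NR are above its vehicle samples for these 6 genes.

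The difference in response between the lines was tested directly with an interaction term over all 16 samples, the response of 4T1 minus that of 67NR. At the threshold of 0.001, 4 of the 29 genes (13.8%) passed with a negative term, against 3.05% of the 12605 genes tested, and none with a positive term, against 4.81%. These 4 genes were Pmvk (-1.58 ± 0.20 on the log2 scale, adjusted p = 4.7e-05), Mvd (-1.74 ± 0.29, adjusted p = 0.000352), Fdft1 (-1.10 ± 0.19, adjusted p = 0.000523) and Lss (-1.45 ± 0.27, adjusted p = 0.000825). They encode enzymes of the route from phosphomevalonate to lanosterol, and the 4 genes had higher means with CIX in 67NR and lower means with CIX in 4T1. At 0.05, 17 of the 29 genes (58.6%) had a negative term, against 14.2% of all genes, and 2 a positive term, against 15.1%. The 17 included 14 of the 19 enzymes of sterol synthesis, all 3 on the way from farnesyl diphosphate to lanosterol and 6 of the 8 after it. The median interaction term was -1.14 over the 19 enzymes and -0.02 over all genes.

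Several enzymes had terms of a size like those that passed 0.001 but did not pass it. Hsd17b7 had the largest, -2.25 ± 0.49 (adjusted p = 0.00275). Tm7sf2 (-1.42 ± 0.30, adjusted p = 0.00233), Msmo1 (-1.24 ± 0.24, adjusted p = 0.00127), Nsdhl (-1.20 ± 0.24, adjusted p = 0.00138), Sc5d (-1.19 ± 0.25, adjusted p = 0.00206) and Cyp51 (-1.17 ± 0.23, adjusted p = 0.00136) came next. The terms of Ggps1 (0.07 ± 0.19), Ebp (-0.03 ± 0.16) and Dhcr7 (-0.26 ± 0.38) were within 1 standard error of 0. Without CIX sample 4 of 4T1, 13 genes passed 0.001 with a negative term, against 3.44% of all genes, and Mylip with a positive term, against 4.85%. Pmvk passed whichever of the 16 samples was omitted. Mvd missed 0.001 without 4T1 CIX sample 8 (adjusted p = 0.00108) or 16 (0.00102) and without 67NR vehicle sample 5 (0.00108) or 9 (0.00108). Fdft1 passed without 4T1 sample 3, 11, 15 or 4 or 67NR sample 1, and otherwise had an adjusted p-value of up to 0.0015. Lss passed without 4T1 sample 15 or 4 or 67NR sample 13, and otherwise had one of up to 0.00238. With all samples, Lss also missed 0.001 with edgeR (adjusted p = 0.00136), with DESeq2 size factors (0.00102) and without a filter (0.00148), and Fdft1 without a filter (0.0012). Without samples 1 and 2 of 67NR, 1 gene passed 0.001, Pmvk (adjusted p = 0.000446), whereas Mvd (0.00104), Fdft1 (0.00142) and Lss (0.00429) did not. With sets of consecutive sample numbers as a block, 13 passed, all with a negative term, against 8.66% of all genes in either direction.

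The 4 regulators had a median log2 fold change of -0.29 in 4T1 and 0.00 in 67NR. Srebf2 encodes the SREBP mainly tied to sterol synthesis. It had 371, 283, 243 and 284 CPM with vehicle and 360, 342, 338 and 316 CPM with CIX in 4T1, groups that overlapped through vehicle sample 3 (log2 fold change 0.20 ± 0.13, adjusted p = 0.238, or 0.29 and 0.0297 without samples 3 and 4). In 67NR it had 322, 291, 298 and 251 CPM with vehicle and 381, 393, 433 and 384 CPM with CIX. These groups did not overlap, and Srebf2 was higher by 0.44 ± 0.078 on the log2 scale (adjusted p = 0.00708).

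Srebf1 encodes the SREBP mainly tied to fatty acid synthesis. In 4T1 it had 283, 254, 258 and 240 CPM with vehicle and 215, 180, 189 and 167 CPM with CIX, all CIX samples being lower (log2 fold change -0.48 ± 0.10, adjusted p = 0.00468). In 67NR it had 108, 108, 102 and 114 CPM with vehicle and 96.9, 110, 83.3 and 105 CPM with CIX, groups that overlapped (-0.15 ± 0.094, adjusted p = 0.302). The difference between the responses did not pass 0.05 with all samples (interaction -0.33 ± 0.13, adjusted p = 0.0736). With single samples left out its adjusted p-value ranged from 0.0216 to 0.14, with 0.0217 without CIX sample 4 of 4T1. Without samples 3 and 4 of 4T1 the value was 0.0442, and without samples 1 and 2 of 67NR 0.119.

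Scap, the escort of the SREBPs, had 142, 160, 164 and 135 CPM with vehicle and 109, 110, 107 and 94.6 CPM with CIX in 4T1, where the groups lay apart (-0.53 ± 0.10, adjusted p = 0.00281). In 67NR it had 113, 90.7, 105 and 96.5 CPM with vehicle and 86.0, 96.0, 79.8 and 77.2 CPM with CIX, with overlap (-0.28 ± 0.095, adjusted p = 0.0762). Both lines therefore had lower means with CIX, and the interaction was -0.25 ± 0.13 (adjusted p = 0.183). Insig1, the retention factor and itself a target of SREBP, varied widely. It had 390, 185, 124 and 215 CPM with vehicle and 261, 183, 148 and 220 CPM with CIX in 4T1. In 67NR it had 323, 210, 251 and 213 CPM with vehicle and 353, 267, 235 and 263 CPM with CIX. Its groups overlapped in both lines, with log2 fold changes of -0.10 ± 0.32 and 0.15 ± 0.16, and the log2 fold change in 4T1 was 0.08 without samples 3 and 4.

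**Figure D4:**
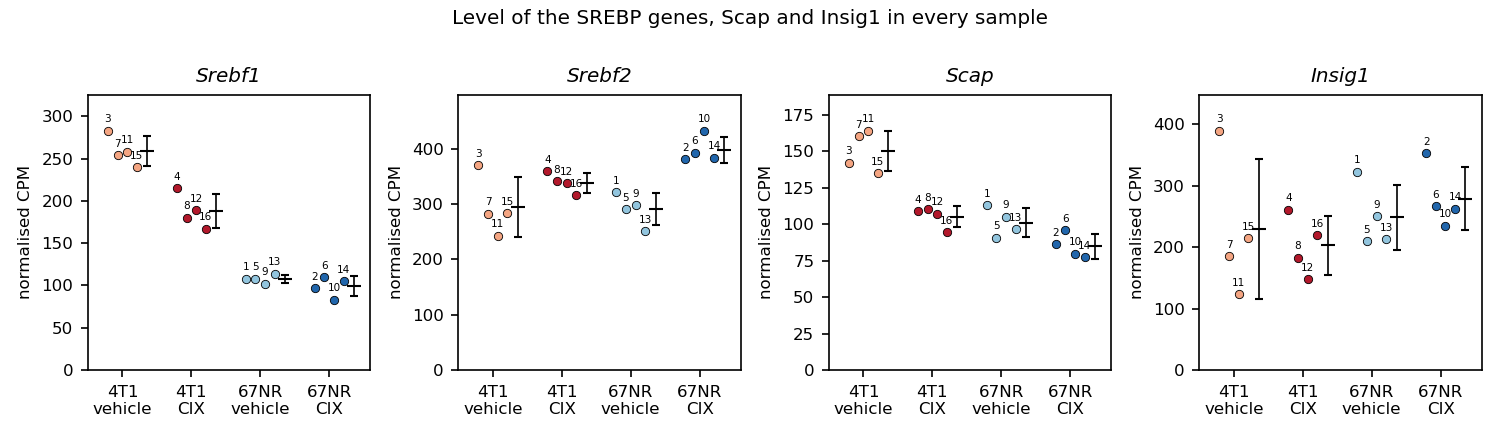
Normalised CPM of Srebf1, Srebf2, Scap and Insig1 in each sample (points, with the sample number) and mean ± SD of the 4 replicates of each group (bars). Srebf1 and Scap are lower in all CIX samples of 4T1 than in its vehicle samples, Srebf2 is higher in all CIX samples of 67NR, and the Insig1 groups overlap in both lines.

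Stard4 and Mylip act on sterol transport and uptake. Stard4, a sterol transfer protein, had 175, 133, 107 and 122 CPM with vehicle and 109, 69.9, 63.4 and 61.2 CPM with CIX in 4T1, where only CIX sample 4 reached the vehicle range (-0.86 ± 0.21, adjusted p = 0.00956). In 67NR its log2 fold change was 0.32 ± 0.11 (adjusted p = 0.0811), and the interaction was -1.18 ± 0.25 (adjusted p = 0.00272). Mylip, a ubiquitin ligase that limits lipoprotein uptake, was the only gene of the 29 that was lower with CIX in 67NR at 0.05. It had 8.99, 8.58, 7.01 and 7.35 CPM with vehicle and 4.66, 4.87, 3.37 and 4.35 CPM with CIX in 67NR, so that all CIX samples were lower (-0.90 ± 0.15, adjusted p = 0.00554). In 4T1 it had 6.42, 7.68, 6.71 and 7.14 CPM with vehicle and 6.18, 10.7, 8.08 and 8.69 CPM with CIX, groups that overlapped (0.22 ± 0.19, adjusted p = 0.365). The interaction was 1.12 ± 0.25 (adjusted p = 0.00306), the largest positive term of the 29 genes.

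The 4 genes of fatty acid synthesis did not follow a single pattern. Acss2, which makes acetyl-CoA from acetate, had between 41.6 and 49.2 CPM with vehicle and between 67.8 and 81.8 CPM with CIX in 67NR (0.72 ± 0.089, adjusted p = 0.00171), and between 76.1 and 111 CPM in both groups of 4T1 (0.03 ± 0.13, adjusted p = 0.890, interaction adjusted p = 0.00433). Acly, ATP citrate lyase, was higher in 67NR (0.35 ± 0.057, adjusted p = 0.00457) and had a lower mean in 4T1 (-0.44 ± 0.20, adjusted p = 0.102). Acaca, acetyl-CoA carboxylase, was the only gene of the 29 that was higher in 4T1 at 0.05, with 113, 126, 128 and 161 CPM with vehicle and 216, 209, 176 and 201 CPM with CIX (0.59 ± 0.12, adjusted p = 0.00416). In 67NR its log2 fold change was 0.11 ± 0.11. Fasn, fatty acid synthase, did not pass in either line (0.20 ± 0.24 in 4T1 and 0.21 ± 0.11 in 67NR), and its highest value, 1150 CPM, was in CIX sample 4.

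Without treatment, many of the genes were higher in 4T1. At 0.001, 13 of the 29 genes (44.8%) were higher in 4T1 vehicle samples than in 67NR vehicle samples, against 20.4% of the 11040 genes tested, and none was lower, against 19.6%. All 4 samples of 4T1 lay above all 4 of 67NR for 18 of the genes, against 31.3% of all genes. The 13 genes were Acat2, Pmvk, Mvd and Idi1 of the mevalonate pathway, Fdft1, then Tm7sf2, Ebp and Sc5d after lanosterol, Srebf1 and Scap, Stard4, and Fasn and Acss2. Pmvk (log2 fold change 1.66 ± 0.17, adjusted p = 2.2e-05), Tm7sf2 (1.66 ± 0.20, adjusted p = 7.8e-05) and Fdft1 (1.54 ± 0.14, adjusted p = 1.41e-05) had the largest differences. When single samples were left out, the number that passed ranged from 8 without vehicle sample 7 of 4T1 (32.3% of all genes) to 14 without vehicle sample 3 (39.6%) or 11 (35.5%). Without vehicle sample 3, 1 of the 14 was lower in 4T1, Mvk (-0.70, adjusted p = 0.000629). Srebf1 differed by 1.25 ± 0.083 (adjusted p = 1.8e-06), whereas Srebf2 did not differ by more than its error (0.00 ± 0.13). Dhcr7 was lower in 4T1 (-0.96 ± 0.31), with an adjusted p-value of 0.0216. Since both comparisons use the 4T1 vehicle samples, the lower levels of Pmvk and Mvd with CIX in 4T1 and their higher levels in untreated 4T1 are not independent. Measured per transcript length, Fdps had the highest mean level of the list in vehicle samples, 606 TPM in 4T1 and 370 TPM in 67NR, and Mylip the lowest, 3.71 and 3.99 TPM.

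The 19 enzymes of sterol synthesis summed to 3196 ± 782 CPM in 4T1 with vehicle and to 2545 ± 673 CPM with CIX (SD, n = 4). In 67NR they summed to 2081 ± 227 CPM with vehicle and to 3230 ± 282 CPM with CIX. All CIX samples of 67NR (3058 to 3650 CPM) were above all its vehicle samples (1774 to 2312 CPM), whereas the 4T1 groups overlapped through CIX sample 4.

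A further 16 genes of the pathway were examined as a list. None passed 0.001 within a line. At 0.05, 5 of the 16 were lower in 4T1, against 20.8% of all genes, and none was higher, against 21.9%. In 67NR 5 were higher, against 8.51%, and 2 lower, against 9.26%. The largest changes in 4T1 among those that passed 0.05 were those of Tmem97, a sterol-responsive protein of the endoplasmic reticulum (-0.94 ± 0.15, adjusted p = 0.00103), the desaturase gene Scd2 (-0.51 ± 0.13, adjusted p = 0.0102) and the desaturase gene Fads1 (-0.42 ± 0.078, adjusted p = 0.00238). In 67NR they were those of the phosphatidate phosphatase gene Lpin1 (0.71 ± 0.094, adjusted p = 0.00217), the citrate carrier gene Slc25a1 (0.53 ± 0.091, adjusted p = 0.00612), Tmem97 (-0.47 ± 0.12, adjusted p = 0.0283) and Fads1 (0.43 ± 0.070, adjusted p = 0.00457). Tmem97 was thus lower in both lines. In the interaction 3 of the 16 genes passed 0.001, all with a negative term, against 3.05% of all genes, namely Fads1 (-0.86 ± 0.099, adjusted p = 2.29e-05), Lpin1 (-0.93 ± 0.16, adjusted p = 0.000412) and the desaturase gene Scd1 (-0.74 ± 0.12, adjusted p = 0.00033), the last named after its value was seen.

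Of 7 genes of sterol efflux, esterification and oxysterol sensing, 4 could be tested in 4T1 and 6 in 67NR. None passed 0.001 in 4T1, against 9.34% of all genes, or in 67NR, against 0.389%. At 0.05, 2 of the 6 were lower in 67NR, against 9.26%, and 1 was higher, against 8.51%. The efflux pumps Abca1 (-0.88 ± 0.20, adjusted p = 0.0196) and Abcg1 (-0.59 ± 0.10, adjusted p = 0.00708) were lower and Soat1, which esterifies cholesterol, was higher (0.67 ± 0.15, adjusted p = 0.0157). Abca1 had 49.8, 48.6, 51.3 and 48.5 CPM with vehicle and 17.1, 27.3, 30.5 and 39.6 CPM with CIX, and all CIX samples were lower. Lpcat3, a phospholipid acyltransferase, had a log2 fold change of 0.20 ± 0.11 in 67NR. In 4T1 none passed 0.05, against 20.8% of all genes lower and 21.9% higher, with Nr1h2 (-0.69 ± 0.26) and Lpcat3 (0.57 ± 0.24) the furthest from 0, then Nr1h3 (0.23 ± 0.28), both Nr1h genes being oxysterol receptors, and Soat1 (-0.14 ± 0.099). Abca1 and Abcg1 had at most 1.05 and 1.37 CPM in 4T1, and Ch25h at most 0.041 CPM in any sample of either line. The interaction tested 6 of the 7 genes. At 0.05, Soat1 passed with a negative term (-0.81 ± 0.17, adjusted p = 0.00205), against 14.2% of all genes. Abcg1 passed with a positive term (1.27 ± 0.30, adjusted p = 0.00484), against 15.1%, but rests on its low levels in 4T1.

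In the comparison of CIX with vehicle in 4T1, markers of cell state also moved. Of 5 epithelial markers tested, Epcam fell (-0.78, adjusted p = 0.000127), and Krt19 was higher at 0.05 (0.68, adjusted p = 0.00373). The log2 fold changes of Cdh1 (-0.29), Krt8 (0.43) and Krt18 (0.14) did not pass 0.05. The 6 epithelial markers summed to between 2480 and 2670 CPM with vehicle and to between 2630 and 2890 CPM with CIX. Of 3 mesenchymal markers tested, Vim (1.24, adjusted p = 4.25e-05) and Sparc (1.04, adjusted p = 0.000153) rose, and Fn1 was higher at 0.05 (0.40, adjusted p = 0.0446). The mesenchymal markers summed to between 2590 and 3390 CPM with vehicle and to between 4520 and 5410 CPM with CIX. In 67NR, Vim was higher (0.58, adjusted p = 0.00133) and Sparc lower (-0.33, adjusted p = 0.00631) at 0.05, and the mesenchymal markers summed to between 7360 and 8520 CPM with vehicle and to between 10300 and 11200 CPM with CIX. Their part in the levels of the lipid synthesis genes was not tested. For some genes, transcripts share 31-base words with other genes, so that the division of reads is uncertain. This share was 43.7% for Acat2, all with Acat3, 33.4% for Acaca, 27.9% for Fdps, 18.8% for Idi1, 14.3% for Fdft1, 12.9% for Tm7sf2 and 10.3% for Ggps1, and at most 3.46% for the other 22 genes, among them Pmvk and Mvd with none and Lss with 0.581%.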

How the data were processed

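RNA of 16 samples, 4 in each group of cell line and treatment, was sequenced from stranded mRNA libraries. The authors quantified the reads with salmon (version 0.12 in the submitters' processing notes), and used tximport to bring transcript values to the level of the gene. The deposited estimated counts cover 33072 genes and are not normalized. The paper gives the mouse annotation as Ensembl GRCm38, and the gene identifiers are those of mouse, whereas the processing notes give GRCh38. The scaling used by tximport is not given in the sources used here. Groups were taken from the labels. Positions and transcript lengths were taken from GENCODE M21 (GRCm38), which held 32832 of the genes.

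Estimated counts were rounded. TPM was approximated from the mean transcript length, and genes with TPM below 1 in more than 3 samples of a comparison were left out (for the interaction, in both lines), following the study. All 29 genes passed in every comparison. Differential expression was tested with limma-voom and TMM (limma 3.58.1, edgeR 4.0.16, R 4.3.3), with Benjamini-Hochberg adjustment over all genes tested and a threshold of 0.001. Values after ± are standard errors of log2 fold changes unless given as SD. CIX and vehicle were compared within each line (8 samples), the lines were compared with an interaction term over 16 samples, and vehicle samples were compared between lines. The procedure was tested on simulated data. Alternatives were edgeR's quasi-likelihood test, DESeq2 1.42.0, DESeq2 size factors, no scaling, no filter, a threshold of 0.05, a common fit and leaving out each sample, and, chosen after seeing the data, leaving out samples 1 to 4 or pairs of them and a block for sets of consecutive sample numbers. Values in each sample were given for the genes that passed in the interaction, for the regulators and for genes chosen after their values were seen (Dhcr7, Hsd17b7, Stard4, Mylip, Acaca and Abca1). The Mvd, Pmvk and Lss promoters were also chosen in this way. The genes and lists were chosen with earlier results of these data known. The values of 1 further gene of the pathway are not reported here.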

Additional observations from a re-analysis of the deposited data

Results flagged for a closer look

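The response to CIX differed between the lines by the interaction test for Fdft1 (-1.10 on the log2 scale), Lss (-1.45), Mvd (-1.74) and Pmvk (-1.58), as described above.

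Among 116 combinations of gene and group, 14 (12.1%) held a sample that lay apart from the other 3 by Dixon's criterion. By this criterion, the gap to the nearest sample, as a share of the range, is past the 95% critical value. Chance flags about 1 in 20 if the combinations are independent, but here the same samples enter for every gene. The share of all genes flagged by this rule was not tested. The 12.1% therefore cannot be read as particular to the genes of the list. In 13 of the 14 the sample was high, and in 8 of them it was CIX sample 4 of 4T1. In that sample Fdps had 826 CPM, Msmo1 197 CPM, Hsd17b7 51.4 CPM, Mvd 114 CPM, Mvk 53.4 CPM, Acat2 364 CPM, Tm7sf2 60.0 CPM and Acly 796 CPM. The other CIX samples of 4T1 lay between 540 and 577 CPM for Fdps and between 12.3 and 18.3 CPM for Hsd17b7. In vehicle sample 3 of 4T1, Fdps (718 CPM), Mvd (149 CPM), Pmvk (174 CPM) and Acat2 (393 CPM) lay apart. Idi1 had 135 CPM in CIX sample 2 of 67NR, above 95.3 to 99.7 CPM in the others, and Acss2 had 76.1 CPM in vehicle sample 11 of 4T1, below 90.1 to 92.7 CPM. The summed level of the 19 enzymes of sterol synthesis lay apart in CIX sample 4 of 4T1 (3545 CPM) and in CIX sample 2 of 67NR (3650 CPM).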

How the results depend on the processing

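Of the 29 genes, 0 passed 0.001 in 4T1 with limma-voom, 5 with DESeq2's Wald test (against 26.6% of all genes), 5 in a common fit of all samples (23%), 8 at a threshold of 0.05 (42.7%) and 2 without samples 3 and 4 (6.8%). Leaving out each sample in turn gave 0 in 4T1 (2.31 to 8.36% of all genes), 0 to 1 in 67NR (0 to 0.649%), 1 to 14 in the interaction (5.17 to 8.3%) and 8 to 14 between the untreated lines (31.7 to 39.6%). The 8 came without vehicle sample 7 of 4T1 and the 14 of the interaction without CIX sample 4. In 67NR, 0 passed with limma-voom, 17 with DESeq2 (9%) and 18 at 0.05 (17.8%). The common fit had 12 at 0.05, 11 of them higher, against 6.58% of all genes, and 1 lower, against 5.52%. In the interaction, 4 passed, and 3 did so with edgeR (8.03%) and with DESeq2 size factors (7.9%), 2 without a filter (3.46%), 13 with DESeq2 (15.7%), 19 at 0.05 (29.4%), 14 without samples 3 and 4 of 4T1 (9.89%), 1 without samples 1 and 2 of 67NR (3.85%) and 14 without samples 1 to 4 (5.69%). Between the untreated lines 13 passed, and 20 at 0.05 (67.4%). The sets without several samples were chosen after seeing the data. None of the fold changes that turned direction had passed 0.05. Acss2 in 4T1 had -0.03 without scaling and -0.04 without samples 3 and 4, Insig1 in 4T1 had 0.08 without samples 3 and 4, Ebp in the interaction had 0.00 without a filter, Fasn in the interaction had 0.02 without a filter and 0.03 with edgeR and DESeq2, and Srebf2 between untreated lines had 0.00 with DESeq2 size factors and 0.02 without scaling, with edgeR, with DESeq2 and in the common fit, and 0.00 with the block below. With each sample left out, the log2 fold changes that turned ranged from -0.09 to 0.10 (Acss2), -0.24 to 0.09 (Dhcr7), -0.05 to 0.32 (Fasn), -0.35 to 0.20 (Insig1) and -0.43 to 0.03 (Mvk) in 4T1 and from -0.06 to 0.45 (Dhcr7) in 67NR. They ranged from -0.12 to 0.05 (Ebp), -0.26 to 0.12 (Fasn), -0.04 to 0.14 (Ggps1) and -0.50 to 0.05 (Insig1) in the interaction and from -0.09 to 0.45 (Hsd17b7), -0.55 to 0.02 (Insig1), -0.09 to 0.14 (Msmo1) and -0.12 to 0.09 (Srebf2) between untreated lines. The cause of these shifts was not tested. The groups share no sample number, but each set of 4 consecutive numbers holds a sample of every group. The labels do not say that a set was handled together. Vehicle and CIX samples of a set deviated from their group means over genes with r of 0.39, 0.06, 0.31 and 0.18 in 4T1. In 67NR r was 0.07, -0.06, 0.07 and -0.05. For the 19 enzymes of sterol synthesis, however, samples 1, 2, 3 and 4 each had the highest sum of their group. These values do not settle whether the sets were pairs, and the fit without a block was kept as the main fit. With the set as a block, a fit chosen after seeing the data, 5 of the 29 genes passed 0.001 in 4T1, all lower (Hsd17b7, Msmo1, Pmvk, Sqle and Stard4, against 9.8% of all genes), with 18 lower at 0.05 (25.3%), 0 in 67NR, 13 in the interaction, all with a negative term (8.66%), and 11 between untreated lines (27.2%). With 4 samples a group, the spread between samples, not depth, set the errors.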
